A study of Mus musculus with 6 samples.

Results

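CD4 T cells of the small intestinal mucosa were picked out of the deposited droplet libraries by their RNA. A cell counted as a CD4 T cell when it held at least 1000 unique molecular identifiers (UMIs, 1 per captured RNA molecule), at most 25% UMIs from mitochondrially encoded (mt-) genes, at least 2 UMIs summed over Cd3d, Cd3e and Cd3g, at least 1 UMI of Cd4, and none of Cd8a, Cd8b1, Trdc or Vil1. The members were thus chosen by measured levels of these genes, which are given below as values only. The rule found 78 cells with 323805 UMIs among 60706 barcodes (0.128%), or 0.221% of the 35259 cells past the UMI and mt- limits. They were compared with 940 Cd8a-positive T cells, which met the same limits, had at least 1 Cd8a UMI and lacked Cd4, Trdc and Vil1.

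CD4 T cells recognise peptides on MHC class II through an alpha-beta T cell receptor, with Cd4 as coreceptor, and instruct other cells through cytokines and surface ligands such as CD40 ligand. Their known states include Th1, Th2, Th17, follicular helper and regulatory cells. Tbx21 is the leading transcription factor of Th1, Gata3 of Th2, Bcl6 of follicular helper and Foxp3 of regulatory cells. In the small intestine most CD4 T cells live in the lamina propria. The T cells between epithelial cells are mainly Cd8a-positive or gamma-delta cells, many of which carry CD8 alpha homodimers without the CD8 beta chain that Cd8b1 encodes, along with natural killer receptors and granzymes.

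The study compared mice in which Elavl1, the gene of the RNA-binding protein HuR, was deleted in the intestinal epithelium (IE-HuR-/- mice, labelled HuR knockout) with control littermates (labelled wild-type), with 3 libraries under each label and 1 library per animal. Per the methods, the mice were HuR fl/fl on a C57BL/6 background, the knockouts carried Cre under the villin promoter, and controls were Cre-negative. Villin-Cre acts in epithelial cells, so the T cells described here were not its target. Cells were released with EDTA and a trypsin-type enzyme from the epithelium, and the study checked the purity of the epithelial cells by flow cytometry, so T cells were not the population sought.

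Elavl1 had 30.1, 31.1 and 29.6 CPM (UMI counts scaled to the summed UMIs of the cells) in Vil1-positive cells (at least 3 Vil1 UMIs) of control replicates 1 to 3, and 32.1, 32.1 and 33.4 CPM in those labelled IE-HuR-/-. Its RNA was thus no lower under the knockout label, and the log2 fold change was 0.22 (SE 0.0451, edgeR adjusted p = 0.00163) in a comparison where 47.3% of 13842 RNAs were called. Without TMM scaling it was 0.10 and not called (edgeR adjusted p = 0.0714). Where these UMIs lie relative to the deleted part of the gene was not examined, and what is said of these libraries goes by their labels, not by this RNA. In CD4 T cells Elavl1 had 32.6, 0 and 63.8 CPM in the control libraries and 92.8, 69.3 and 71.2 CPM in the libraries labelled IE-HuR-/-, from 23 UMIs in all, too few to be tested by label.

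The 6 libraries held between 59518012 and 91818560 UMIs. CD4 T cells had a median of 3982.5 UMIs (1069 to 10654), 1638 detected genes (495 to 3214) and 3.76% mt- UMIs (1.41% to 15.2%). The control libraries gave 7, 2 and 4 CD4 T cells with 30646, 6400 and 15665 UMIs. The libraries labelled IE-HuR-/- gave 22, 21 and 22 cells with 86164, 86627 and 98303 UMIs. The control side therefore rests on 13 cells and 52711 UMIs against 65 cells and 271094 UMIs, and 1 UMI in control replicate 2 is worth 156 CPM. Of the CD4 T cell barcodes, 1 also occurred in another library, where it was not a CD4 T cell, and library pairs shared 22 to 44 barcodes.

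Cd3e and Cd4 were present by the choice of cells. Cd3e had 946, 781 and 1277 CPM in the control libraries and 1161, 1258 and 1109 CPM in the others, and Cd4 had 326, 469 and 255 CPM against 615, 358 and 458 CPM. Trac, the constant region of the T cell receptor alpha chain and the marker that the rule did not use, was found in 68 of the 78 cells. Its levels were 359, 312 and 894 CPM in the control libraries and 986, 750 and 631 CPM in the libraries labelled IE-HuR-/-. The 2 sets overlapped, and the Trac level was not distinguishable from that of Cd8a-positive T cells (log2 fold change -0.08, SE 0.21, edgeR adjusted p = 0.965).

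A Cd4 UMI was found in 10 of 16532 Vil1-positive cells without a CD3 UMI (0.0605%, 95% exact binomial interval 0.029% to 0.111%, counting error only) and in 7 of 1642 CD3-positive cells with Trdc (0.426%), at median depths of 7946 and 4784.5 UMIs. It was found in 25 of 965 CD3-positive cells with Cd8a and without Trdc (2.59%, interval 1.68% to 3.8%). A further 27 cells failed the rule only for a Cd8a or Cd8b1 UMI. At the edge of the rule, the 42 members with a single Cd4 UMI had 790 CPM of Trac and 109 CPM of Cd40lg, and the 36 members with more had 684 and 101 CPM. The 224 cells that failed only for want of a Cd4 UMI had 261 CPM of Trac and 1200.5 CPM of Fcer1g, which was at 0 CPM in members with 1 Cd4 UMI. Of cells that failed only for a Vil1 UMI there were 123, of which 73 had exactly 1, with 684 CPM of Trac and 75.7 CPM of Cd40lg. Vil1 was present in 58.6% of all 7066 CD3-positive cells, so the rule kept the smaller share of the Cd4-positive T cells in these droplets.

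RNA of other cell types was measured beside the results. The 19 epithelial markers summed to 6232, 10938 and 5299 CPM in CD4 T cells of the control libraries and to 6035, 6060 and 6734 CPM in the others, against 87231 CPM in Vil1-positive cells. Fabp2, a fatty acid-binding protein of enterocytes, led them and was found in 77 of the 78 cells. Epithelial RNA was thus in nearly every CD4 T cell profile, at similar sums under both labels, and its part in the results was not tested beyond the values given. The B cell markers Ms4a1 and Pax5 were at 0, as were Lyz2, Csf1r, C1qa, C1qb and C1qc of myeloid cells. The 10 B and plasma cell markers summed to 0, 0 and 63.8 CPM in the control libraries and to 105, 127 and 91.6 CPM in the others, with Ighm the most abundant at 17 UMIs. The 12 myeloid markers summed to 0, 0 and 63.8 CPM and to 116, 127 and 122 CPM, with Cst3 the most abundant at 29 UMIs.

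CD4 T cells made up a larger share of T cells in the libraries labelled IE-HuR-/-. Of all CD3-positive cells they were 0.438% ± 0.26 in control and 1.70% ± 0.0806 under the knockout label (SD over 3 libraries each), 3.87 times as much. Of the CD3-positive cells without Vil1 they were 1.63%, 0.428% and 1.01% in the control libraries and 4.1%, 3.96% and 3.9% in the libraries labelled IE-HuR-/-. The lowest share under the knockout label was above the highest control share, and the two-sided exact permutation test gave p = 0.1, the smallest that 3 libraries against 3 allow. Of all cells past the limits, the shares were 0.0756% ± 0.0454 and 0.406% ± 0.0279, 5.38 times as much, again without overlap and with exact permutation p = 0.1. With at least 2 Cd4 UMIs asked of a cell, 4 control cells and 32 others remained, and the ratios were 7.27 and 10.6.

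**Figure D1:**
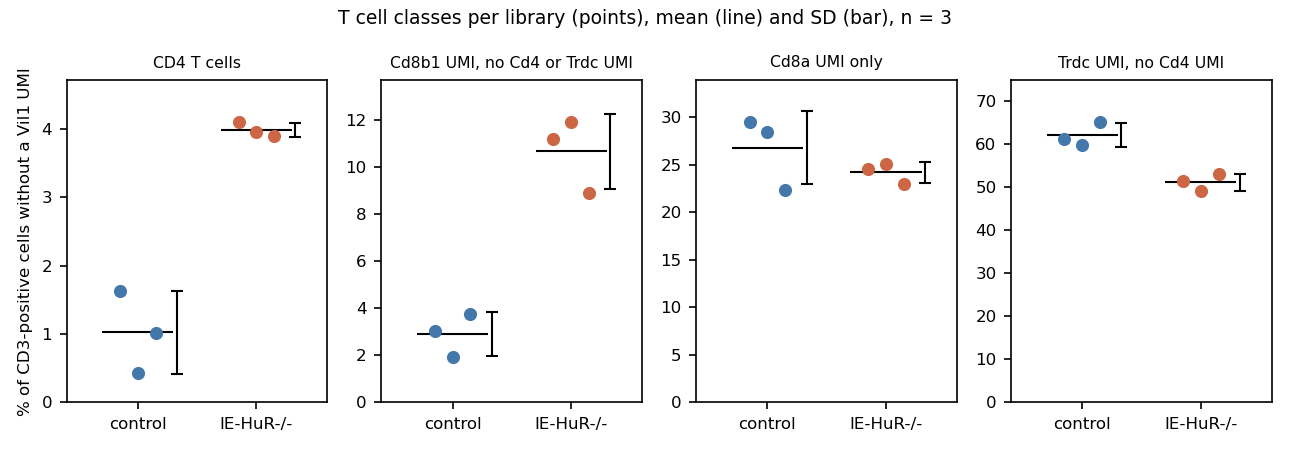
Percent of CD3-positive cells without a Vil1 UMI that fall into each of 4 T cell classes (vertical axes from 0), with points for libraries, a line for the mean and a bar for the SD (n = 3). CD4 T cells and Cd8b1-positive cells are higher and Trdc-positive cells lower under the knockout label without overlap, and cells with Cd8a alone overlap.

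Other T cell classes also had shifted shares of the CD3-positive cells without Vil1. Cells with Cd8b1 but no Cd4 or Trdc made up 2.91% ± 0.926 in the control libraries and 10.6% ± 1.58 in the others. Trdc-positive cells made up 62.0% ± 2.76 and 51.1% ± 1.98. Neither class overlapped between labels, each with exact permutation p = 0.1, whereas cells with Cd8a alone made up 26.8% ± 3.87 and 24.3% ± 1.07, which overlapped (exact permutation p = 0.4). Shares of 1 whole depend on each other, and the suspension had not been sorted for T cells. A change in the number of CD4 T cells and a change in how many were released with the epithelium cannot be told apart here.

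UMIs of the leading transcription factors were few, and a UMI of one of them does not by itself assign a cell to a helper state. Foxp3, which defines regulatory T cells, had no UMI in any CD4 T cell. For 0 of 78 cells, the exact binomial 95% upper bound on the share with a UMI is 4.62%. The floor of 3 cells of 78 is 3.85%. Bcl6 was found in 4 cells, Tbx21 in 9 (11.5%) and Gata3 in 21 (26.9%). Among Cd8a-positive T cells Tbx21 was found in 150 and Gata3 in 157 of 940. Gata3 had 163, 0 and 128 CPM in the control libraries and 81.2, 115 and 71.2 CPM in the others, without a called difference from Cd8a-positive T cells (log2 fold change 1.00, SE 0.362, edgeR adjusted p = 0.0863), although it was called without TMM scaling (1.05, edgeR adjusted p = 0.0441) and with up to 2 Vil1 UMIs (0.93, edgeR adjusted p = 0.0103). Tbx21 likewise was not called (-0.57, SE 0.519, edgeR adjusted p = 0.777). Among effector cytokines, Ifng was found in 13 cells and Tnf in 6, whereas Il17a and Il4 were each found in 1 cell and Il5, Il13 and Il22 in none. Ifng had 65.3, 0 and 128 CPM in the control libraries and 34.8, 11.5 and 275 CPM in the others, so that the labels overlapped. Its highest level was in IE-HuR-/- replicate 3 and its lowest in control replicate 2.

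Of 11 genes of naive and recirculating T cells, 8 had a UMI, and together they had 729 CPM in CD4 T cells and 144 CPM in Cd8a-positive T cells. Il7r, the interleukin 7 receptor, gave 156 of the 236 UMIs and was found in 47 cells. Tcf7, a transcription factor of naive and memory T cells, was found in 20 cells, and Klf2, which promotes exit from tissue, in 5. Ccr7 and Lef1, which mark naive and lymph node-homing T cells, had 1 UMI each. Ccr9, the gut homing chemokine receptor, had UMIs in 60.3% of CD4 T cells and Cxcr6, a receptor of tissue-resident T cells, in 51.3%, where a Ccr9 UMI was found in 3.64% of Vil1-positive cells. Gzma, which encodes granzyme A, was found in 84.6% of CD4 T cells (exact binomial interval 74.7% to 91.8%) and Gzmb in 75.6%. In Vil1-positive cells, taken here as a background of mostly epithelial cells, Gzma was found in 36.6% and Gzmb in 11.2%, at 7048 to 13547 median UMIs per library against 3200 to 4393 in CD4 T cells. Some Vil1-positive cells also held CD3 UMIs, so this background is not free of T cells. There were 0.489 Gzma UMIs per Ccl5 UMI in CD4 T cells, against 1.23 in Cd8a-positive T cells and 1.30 in Vil1-positive cells.

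**Figure D2:**
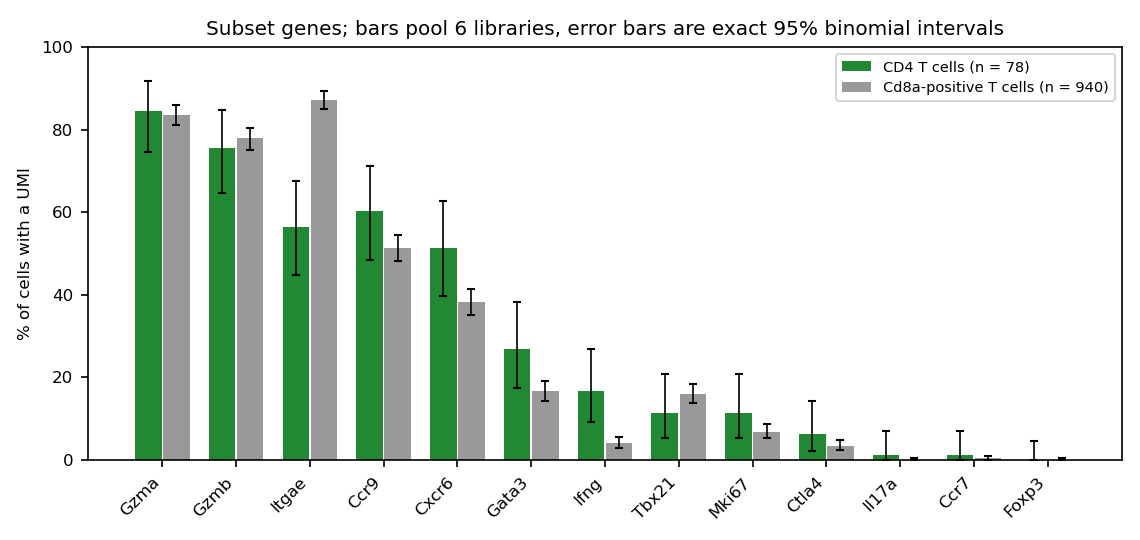
Percent of the 78 CD4 T cells (green) and 940 Cd8a-positive T cells (grey) with a UMI of each of 13 genes, pooled over 6 libraries, with exact 95% binomial intervals that cover counting error only. Foxp3 is at 0 in CD4 T cells, and Itgae is at 56.4% against 87.2%.

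Shares of cells with a UMI were compared for 15 genes. Itgae, the integrin chain that binds E-cadherin on epithelial cells, was found in 53.0% ± 12.2 of CD4 T cells and 86.9% ± 4.64 of Cd8a-positive T cells (SD, n = 6 libraries). It was lower in 6 of 6 libraries, with a two-sided exact sign-flip permutation p = 0.03125, the smallest possible, and 0.312 after Benjamini-Hochberg adjustment over the 15 genes. After each cell was thinned to 1000 UMIs the difference was -20.8 percentage points, in the same direction. Ifng was higher in 5 of 6 libraries (18.3% ± 18.1 against 3.70% ± 2.58, exact permutation p = 0.0625, adjusted 0.312). By label, the lowest exact permutation p of the 15 genes was 0.1, the smallest that 3 against 3 allow, for Cxcr6 (34.5% ± 13.5 in control and 55.3% ± 3.42 under the knockout label), and the adjusted p was 1.0 for each gene.

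The profile of CD4 T cells across genes was compared with that of Cd8a-positive T cells on counts summed per library, where more cells with an RNA and more RNA per cell cannot be told apart. Of 4272 RNAs tested, 71 were higher in CD4 T cells (1.66%) and 152 lower (3.56%) at an edgeR Benjamini-Hochberg adjusted p under 0.05, with a median log2 fold change of -0.09 over all tested RNAs. Without TMM scaling the split was 120 higher and 156 lower. Cd40lg, Maf and 5 of 13 tested genes of T cell receptor signalling were among the RNAs called higher, and Cd7, Gzma and Ccl5 were among those called lower. An RNA could pass the filter on low counts through the sums of either population alone, among them the far larger Cd8a-positive sums. Cd40lg and Itgal passed through the CD4 sums, and Tyrobp, Fcer1g and Klrd1 through the Cd8a-positive sums, so their p-values are not given. Of the RNAs called lower, 14 had no UMI in CD4 T cells. Counts over the tested members of a list are therefore a description of those members and not of the list.

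Cd40lg, the ligand by which helper T cells activate B cells and dendritic cells, separated the populations most among the rises. It had 65.3, 156 and 63.8 CPM in CD4 T cells of the control libraries and 128, 92.3 and 112 CPM in those labelled IE-HuR-/-. In Cd8a-positive T cells it had 0 CPM in 4 libraries and 1.04 and 1.22 CPM in the others, from 2 UMIs, so the populations did not overlap. The ratio of pooled levels was 226 (95% exact interval 58.0 to 1942, counting error only). The fitted log2 fold change was 6.85, with the filter on low counts passed through the CD4 sums alone. Cd28 and Icos, costimulatory receptors of activated and helper T cells, had too few counts for the fit. They had 111 and 83.4 CPM in pooled CD4 T cells and 3.25 and 5.11 CPM in pooled Cd8a-positive T cells.

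Itgal, the alpha chain of the leukocyte integrin LFA-1, had 359, 156 and 192 CPM in CD4 T cells of the control libraries and 162, 242 and 295 CPM in the others. Cd8a-positive T cells had between 3.67 and 48.9 CPM, below every CD4 library. The log2 fold change was 2.97, with the filter on low counts passed through the CD4 sums alone. Il12rb2, the interleukin 12 receptor chain of Th1 cells, had 32.6, 312 and 192 CPM and 232, 173 and 112 CPM in CD4 T cells against 15.3 to 36.7 CPM in Cd8a-positive T cells. Only control replicate 1 reached into that range, and within each of the 6 libraries CD4 T cells were higher. The fitted difference was 2.52 on the log2 scale (SE 0.329, edgeR adjusted p = 4.36e-12). The other 12 of the 15 largest rises that went the same way in every library after TMM scaling were Gm8369, BE692007, Adgre5, Rgs10, Cd6, Rora, Cd44, Calhm6, Gadd45b, Ms4a4b, Bcl11b and Ms4a6b, with log2 fold changes from 1.47 to 2.57. Larger or similar called rises, such as those of Cd5 (2.82), Il7r (2.48) and Maf (2.47), are not among the 15 because CD4 T cells were lower in at least 1 library after scaling. Without IE-HuR-/- replicate 3, Gadd45b was not called (edgeR adjusted p = 0.0903). BE692007, Rgs10, Cd44 and Calhm6 were also each weaker under 1 alternative.

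**Figure D3:**
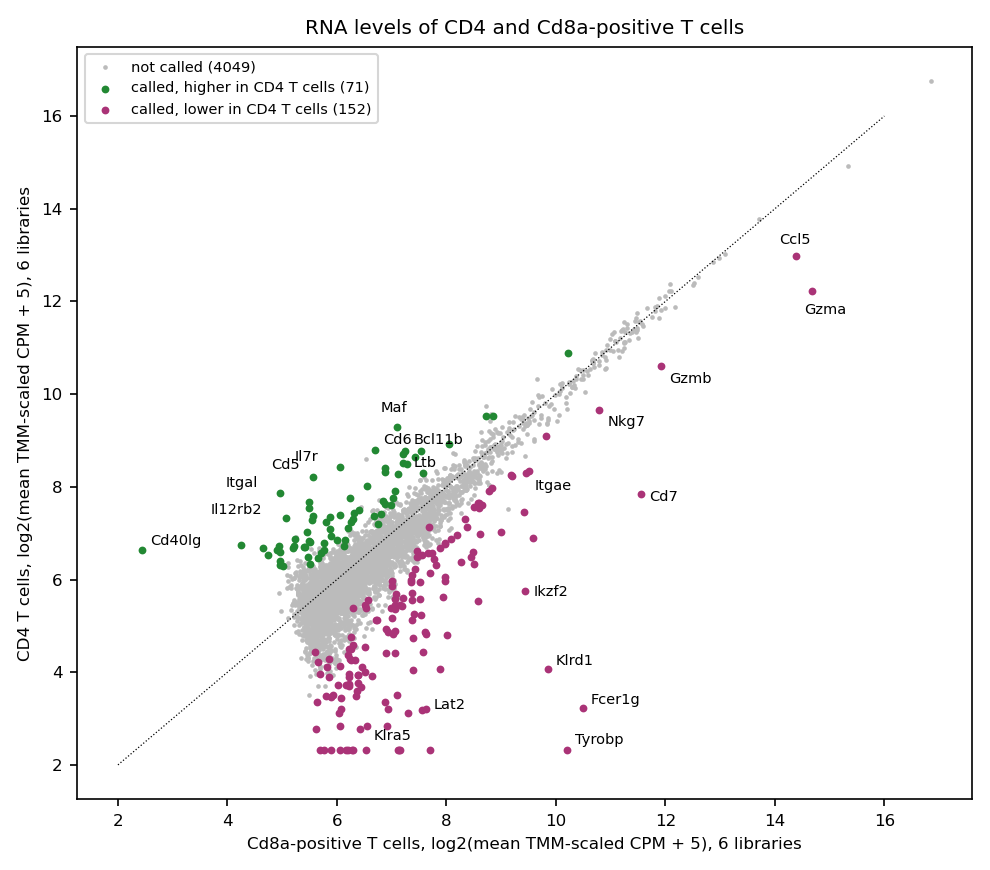
Mean TMM-scaled level of each tested RNA over 6 libraries, as log2(CPM + 5), in Cd8a-positive (horizontal) and CD4 T cells (vertical), with a dotted line at equal levels. The 71 RNAs called higher in CD4 T cells (green) include Cd40lg at the left edge, and the 152 called lower (purple) include Tyrobp at the bottom, which has no UMI in CD4 T cells.

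Among genes of T cell receptor signalling, 13 of 14 were tested, 5 were higher (Cd247, Cd2, Cd5, Cd6 and Lat) and 1 was lower (Trbc1). Of all 4272 RNAs, 1.66% were higher and 3.56% lower. The median log2 fold change was 0.38 against -0.09 for all RNAs. Cd6, a surface receptor that tunes T cell signalling, had 620, 469 and 255 CPM in CD4 T cells of the control libraries and 511, 473 and 437 CPM in the others. Cd8a-positive T cells had 32.1, 16.5 and 27.6 CPM and 133, 163 and 173 CPM, so the populations did not overlap under either label, although the gap was smaller under the knockout label. Cd5, its relative and a negative regulator of receptor signalling, had 326, 0 and 0 CPM in the control libraries and 499, 439 and 356 CPM in the others. The log2 fold change was 2.82 against Cd8a-positive T cells (SE 0.256, edgeR adjusted p = 1.48e-25). The control libraries at 0 held 2 and 4 cells.

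Of the Th17 genes, 4 of 13 were tested and 2 were higher, Maf and Rora, with a median of 1.52. For the helper lists here, 1.66% of all 4272 RNAs were higher and 3.56% lower. Maf, a transcription factor of several helper states including those that make interleukin 10, had 392, 312 and 958 CPM in CD4 T cells of the control libraries and 778, 566 and 834 CPM in the others. Cd8a-positive T cells had 92.6 to 196 CPM, below every CD4 library (log2 fold change 2.47, SE 0.212, edgeR adjusted p = 2.14e-28). After TMM scaling CD4 T cells of control replicate 2, with 2 Maf UMIs and a scaling factor of 1.76, were below the Cd8a-positive T cells of their library. Vil1-positive cells had 1086 CPM. Of the Th1 genes, 6 of 12 were tested and 2 were higher, Cxcr3 and Il12rb2, with a median of 0.75. Of the Th2 genes 1 of 8 was tested and not called, and no follicular helper gene of 9 passed the filter. Of the 16 regulatory genes, 4 were tested and 4 had no UMI in CD4 T cells, so little can be said of the list. Ikzf2, with 18 UMIs in CD4 T cells, was lower (-3.59), and so was Tnfrsf9 (-2.44), with 4 UMIs in CD4 and 303 in Cd8a-positive T cells. With so few CD4 UMIs, Tnfrsf9 could not have passed the filter on low counts without the Cd8a-positive sums, so its p-values are not given. It was not called without IE-HuR-/- replicate 2 or 3. Ikzf2 encodes the transcription factor Helios, which is also expressed by innate-like T cells of the epithelium.

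Of the 15 largest falls by fitted fold change, 12 had no UMI in CD4 T cells, so their order is not a measured one. Tyrobp, the adaptor DAP12, had 0 CPM in all 6 CD4 sums and 1175, 1296 and 1628 CPM in control and 708, 786 and 866 CPM in the other Cd8a-positive sums, at least 109-fold lower in CD4 T cells (bound from 3 UMIs over all CD4 T cells). Fcer1g, an adaptor of Fc and natural killer receptors, had 2 UMIs in 1 CD4 T cell, against 973 to 1651 CPM in Cd8a-positive T cells. Its ratio of pooled levels was 203 (95% exact interval 56.2 to 1679, counting error only), with the filter on low counts passed through the Cd8a-positive sums alone. Klrd1, the CD94 receptor chain, had 0, 0 and 0 CPM in the control libraries and 11.6, 11.5 and 40.7 CPM in the others, against 745 to 989 CPM (log2 fold change -5.49). It too passed the filter through the Cd8a-positive sums alone. The 16 natural killer receptor and adaptor genes together had 528 CPM in pooled CD4 T cells and 4030.2 CPM in pooled Cd8a-positive T cells, and 9 of them had no UMI in CD4 T cells. Most of the CD4 level was Cd160, at 337 CPM, which was not called (-0.22).

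Of the remaining 12 of the 15 largest falls, 11 had no UMI in CD4 T cells (Gm156, Itih5, Klrb1a, Klra5, Spry2, Myo1e, Spp1, Arap3, Clnk, Tsga10 and Sh2d1b1), with bounds from at least 5.19-fold for Sh2d1b1 to at least 21.4-fold lower for Gm156. Except for that of Gm156, these bounds lie below the fitted fold of Cd7 (14.8), which is outside the 15, so the values do not show that these genes fell more. The last, Ddc, had 1 UMI.

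Of 13 cytotoxic genes 12 were tested, none was higher and 5 were lower in CD4 T cells (Gzma, Gzmb, Nkg7, Ccl5 and Ctsw), with a median of -0.90. The share of all 4272 RNAs called lower was 3.56%. Gzma had 5286, 8750 and 6320 CPM in CD4 T cells of the control libraries and 4491, 3636 and 4242 CPM in the others. Cd8a-positive T cells had 21793 to 26403 CPM, above every CD4 library (log2 fold change -2.47, SE 0.19, edgeR adjusted p = 1.14e-35). Gzmb fell less, by 1.33 on the log2 scale. Ccl5, a chemokine of effector T cells, had 7179, 6719 and 7724 CPM and 10480.0, 8208 and 9532 CPM in CD4 T cells against 17831 to 20409 CPM (-1.46, SE 0.184, edgeR adjusted p = 4.56e-13). Cd7, an immunoglobulin-family receptor high on intraepithelial T cells, had 359, 625 and 192 CPM and 139, 127 and 173 CPM against 2473 to 3169 CPM (-3.89, SE 0.249, edgeR adjusted p = 9.18e-52).

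Homing genes went both ways, with 3 of 10 tested higher (Itga4, Itgal and Ccr9) and 2 lower (Itgae and Gpr55). For this and the lists below, 1.66% of all 4272 RNAs were higher and 3.56% lower. Ccr9 had 620, 156 and 574 CPM in CD4 T cells of the control libraries and 661, 439 and 458 CPM in the others (0.92, SE 0.217, edgeR adjusted p = 0.000916). Before TMM scaling it was higher than in the Cd8a-positive T cells of its library in 6 of 6. After scaling, CD4 T cells of control replicate 2, with 1 Ccr9 UMI and a factor of 1.76, were lower. The share of cells with a Ccr9 UMI was higher in 5 libraries and lower in 1. Itgae had 261, 312 and 319 CPM and 429, 381 and 244 CPM, below all Cd8a-positive libraries at 508 to 707 CPM (-1.11, SE 0.232, edgeR adjusted p = 7.57e-05). Among the 18 interferon-stimulated genes 9 were tested and 3 were higher (Ifi27l2a, Rtp4 and Gbp2), with a median of 0.64. The epithelial markers, 17 of 19 tested, held none that was called, with a median of -0.10. Of the costimulatory and checkpoint genes 8 of 16 were tested, Cd40lg was higher, and Tnfrsf9, Lag3 and Cd96 were lower. Of the cytokine receptor genes 9 of 15 were tested, Il7r and Il27ra were higher, and Il2rb and Il21r were lower. Of the 4 cell cycle genes tested, none was called. At the shares over all RNAs, the lack of a call among 4 or 17 genes says little of either list.

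**Figure D4:**
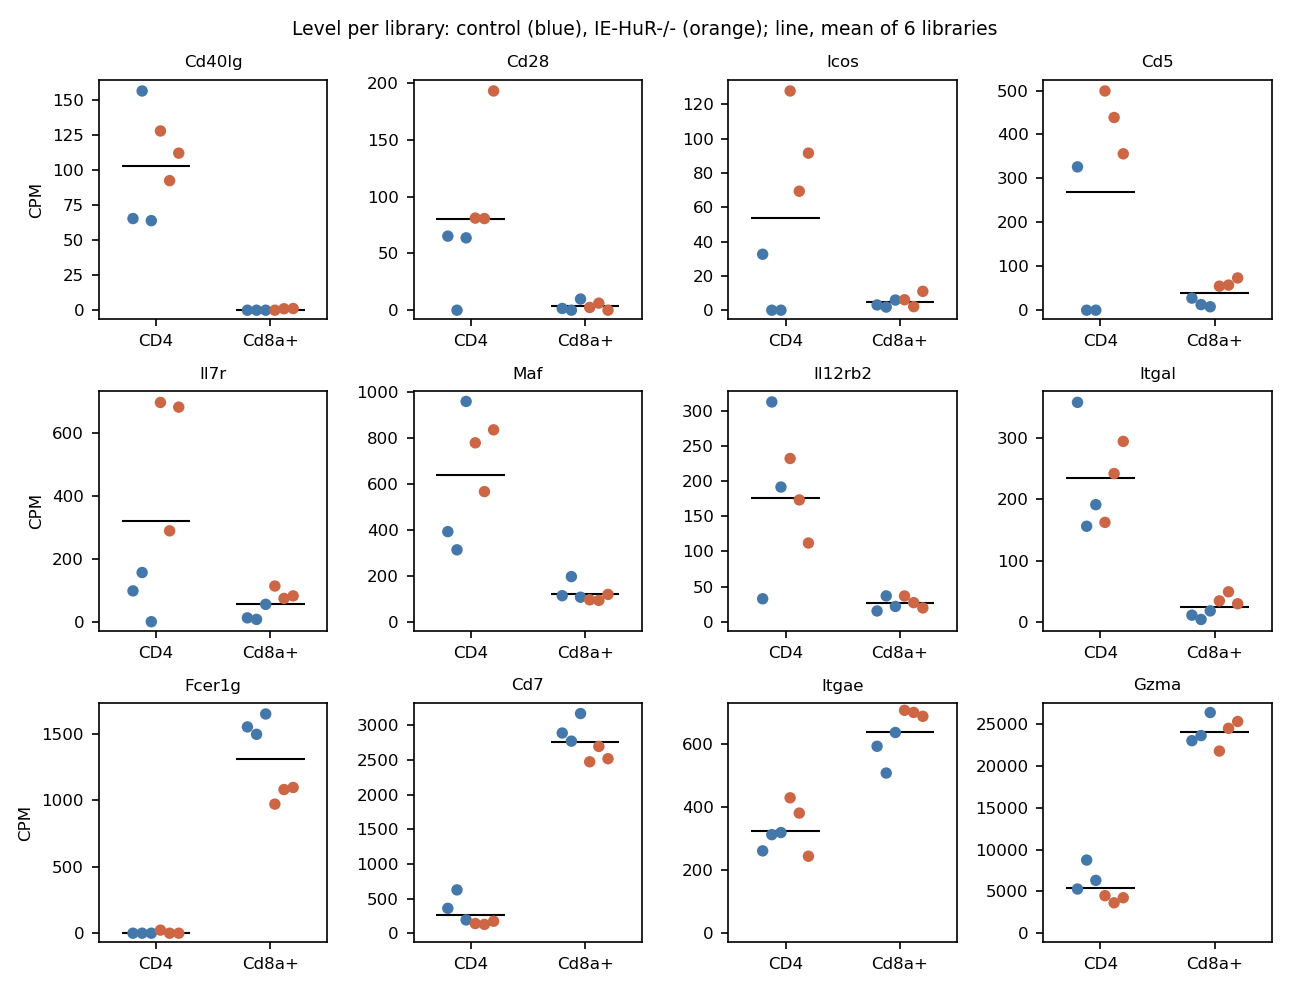
Level (CPM) of 12 genes in CD4 and Cd8a-positive T cells, with a point for each control library (blue) and each library labelled IE-HuR-/- (orange) and a line at the mean of 6 libraries. Before TMM scaling, Cd40lg, Maf and Itgal are higher in every CD4 library than in any Cd8a-positive one, and Fcer1g, Cd7, Itgae and Gzma are lower.

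Against Cd8b1-positive cells alone, the 196 of the 940 cells that carry the beta chain of conventional CD8 T cells, much of this contrast was smaller. That fit tested 1146 RNAs and called 17. The Cd8b1-positive cells held 947489 UMIs, against 4306188 for all Cd8a-positive T cells. Their control sums rested on 12, 6 and 14 cells, so the counts of calls in the 2 fits are not on an equal footing. Maf (2.97), Cd5 (edgeR adjusted p = 3.62e-06) and Itgal (1.35) stayed higher in CD4 T cells. The CD4 sums carried Maf and Itgal past the filter of this fit, so their p-values are not given. Cd7 (-2.67), Gzma (-1.25), Ccl5 (-0.96) and Itgae (-0.93) stayed lower. Cd6 (0.46), Bcl11b (0.34), Rora (0.43), Il7r (0.90) and Ms4a6b (0.19) were not called, and Ms4a4b was at -0.27, opposite in sign. In Cd8b1-positive cells Tyrobp had 79.2 CPM, Fcer1g 102 CPM and Klrd1 225 CPM, and Cd40lg had 1.06 CPM from 1 UMI. The share of Cd8a-positive T cells with a Cd8b1 UMI was 8.63%, 4.32% and 13.6% in the control libraries and 29.8%, 30.4% and 27.8% in the others, so the makeup of the comparison population moved with the label.

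By label, few RNAs differed within CD4 T cells. Of 778 RNAs tested, 5 were called (0.643%) by edgeR, 55 had an unadjusted p under 0.05, and DESeq2 called 0 (24 with an unadjusted p under 0.05). Leaving out IE-HuR-/- replicate 1, 2 or 3 left 0, 2 and 1 calls, and leaving out control replicate 2 or 3 gave 8 and 13. Il7r had 97.9, 156 and 0 CPM in the control libraries, from 4 UMIs, and 696, 289 and 682 CPM in the others, without overlap (log2 fold change 2.90). It passed the filter on low counts through the libraries labelled IE-HuR-/- alone, so its p-value in this fit is not given. It was also higher under the knockout label in Vil1-positive cells, at 1.05 CPM over all libraries (2.89, edgeR adjusted p = 3.36e-05). In Cd8a-positive T cells Il7r had 12.2, 7.33 and 55.2 CPM in the control libraries and 113, 73.9 and 82.0 CPM in the others, also without overlap, although it was not called there (1.89, edgeR adjusted p = 0.321). The difference in label effect between CD4 and Cd8a-positive T cells was not called either (1.36, SE 0.814, edgeR adjusted p = 0.651). Of Trdc-positive cells, 2.75% in the control libraries and 7.79% in the others held an Il7r UMI. Without the Vil1 criterion its value in CD4 T cells was 1.24 (edgeR adjusted p = 0.994), and without IE-HuR-/- replicate 1 or 3 it was not tested.

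Reg3b, an antibacterial lectin made by epithelial cells, had 0, 312 and 63.8 CPM in the CD4 T cells of the control libraries and 708, 554 and 763 CPM in the others (log2 fold change 3.55). The libraries labelled IE-HuR-/- carried it past the filter on low counts, so its p-value in this fit is not given. The 2 sets did not overlap, and the same held in Vil1-positive cells, where Reg3b had 2119, 2496 and 2616 CPM and 11669, 11445 and 12014 CPM. In Cd8a-positive T cells it had 121, 220 and 82.8 CPM and 589, 511 and 686 CPM, so all 3 populations had more Reg3b under the knockout label. Whether the CD4 T cells made it was not tested. Without IE-HuR-/- replicate 1 the value was 3.51 and Reg3b was not called.

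The other 3 calls were small. Malat1, a nuclear long noncoding RNA (0.61, edgeR adjusted p = 0.0463), and the ribosomal protein gene Rpl37 (0.64, edgeR adjusted p = 0.0463) were higher, and Gzma was lower (-0.54, SE 0.139, edgeR adjusted p = 0.0463). The share of CD4 T cells with a Gzma UMI went the other way. It was 69.0% ± 27.0 in control and 87.6% ± 7.33 under the knockout label (exact permutation p = 0.4). Malat1 had 21536, 21562 and 35429 CPM in the control libraries and 41932, 34400 and 37273 CPM in the others, which overlapped before TMM scaling. Malat1 and Rpl37 were not called when any 1 library labelled IE-HuR-/- was left out (edgeR adjusted p from 0.162 to 0.799), and Gzma was not called when any 1 of the 6 libraries was left out (edgeR adjusted p from 0.119 to 0.57). The Gzma direction turned under 4 alternatives (0.05 without the filter on low counts, 0.84 without the 10% of cells with most UMIs, 0.49 with Vil1 not used and 0.60 with up to 2 Vil1 UMIs), and that of Rpl37 with up to 2 Vil1 UMIs (-0.06). None of the 12 T cell receptor signalling genes tested by label was called, where 0.643% of all 778 RNAs were. That list holds none of the genes of the rule. Cd40lg and Cd28 had too few counts to be tested.

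**Figure D5:**
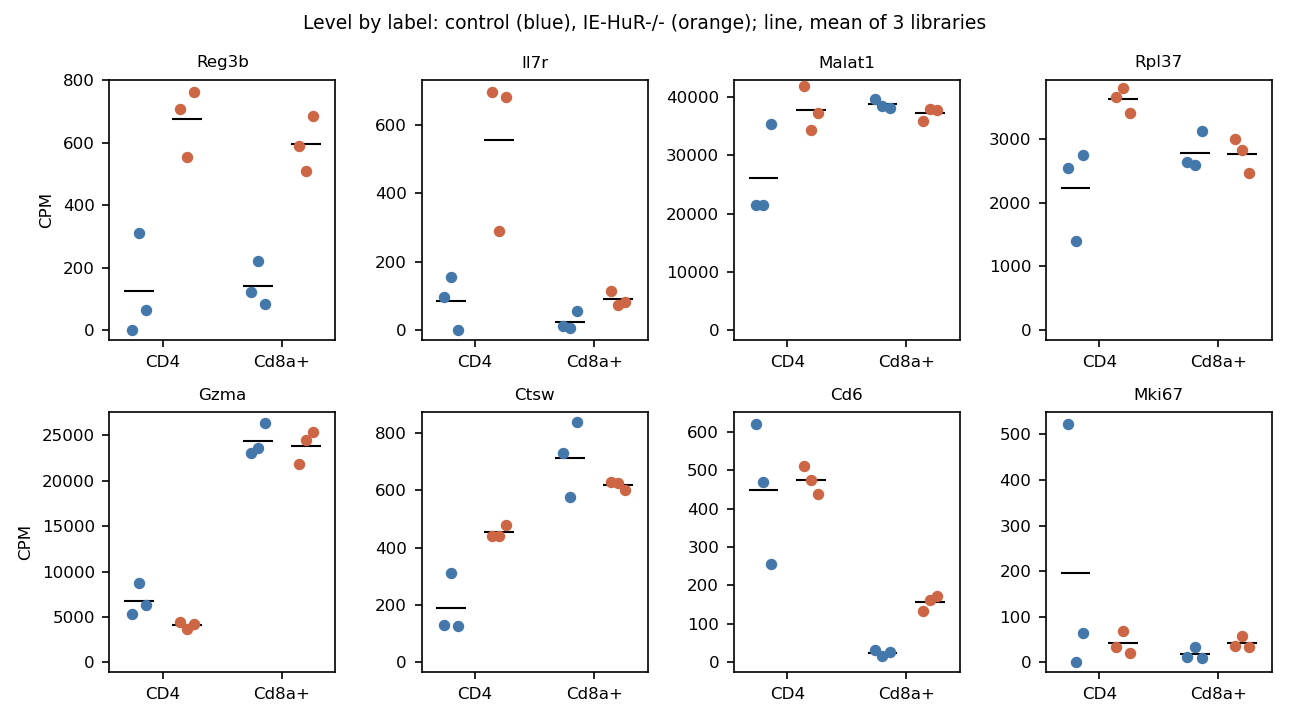
Level (CPM, before TMM scaling) of the 5 RNAs called by label and of Ctsw, Cd6 and Mki67 in CD4 and Cd8a-positive T cells, with a point for each control library (blue) and each library labelled IE-HuR-/- (orange) and a line at the mean of 3. The control points of CD4 T cells rest on 7, 2 and 4 cells, and the high Mki67 point is control replicate 1.

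For comparison, Cd8a-positive T cells had 124 of 7482 RNAs called by label (1.66%). A test of whether the label effect differed between the populations called 6 of 4272 RNAs (0.14%), and 1, 1 and 2 RNAs without IE-HuR-/- replicate 1, 2 or 3. One of them was Cd6, which in Cd8a-positive T cells was higher under the knockout label by 2.57 on the log2 scale (edgeR adjusted p = 4.34e-12) and in CD4 T cells by 0.03, each from the fit of its own population. The joint fit of both populations, which scales the sums anew and had a median difference of 0.442 over all RNAs, gave a difference of -2.06 (SE 0.514, edgeR adjusted p = 0.042). The difference was not called when any 1 of control replicate 1 or the 3 libraries labelled IE-HuR-/- was left out.

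T cell receptor variable segments were seldom caught. The CD4 T cells held 16 Trav and Trbv UMIs beside 913 UMIs of Trac, Trbc1 and Trbc2, and the Cd8a-positive T cells held 312 beside 12588. Trbv2 had 4 of the 12 Trbv UMIs of CD4 T cells (33.3%) and 11 of 140 in Cd8a-positive T cells (7.86%), Trbv29 and Trbv5 had 2 each, and Trbv13-1 and Trbv13-2 had 1 each. These counts describe which segments were seen and do not allow a comparison of repertoires.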

How the data were processed

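Mucosal cells of 3 control littermates and 3 IE-HuR-/- mice were measured in 6 droplet libraries. For each library the authors deposited unnormalised UMI counts of 32285 mouse features for every barcode. Per the file headers they come from Cell Ranger 6.1.2, and the submitters' processing notes name mm10. The labels name a 5′ kit, whereas the methods name a 3′ kit and a human reference. The members and the gene lists were chosen with earlier results of these data known. Counts of the selected cells were summed per library, and libraries served as replicates (n = 3 per label). Sums were fitted in R 4.3.3 by the robust quasi-likelihood method of edgeR 4.0.16, after TMM scaling and a filterByExpr filter (minimum count 10, total 15), and RNAs with a Benjamini-Hochberg adjusted p under 0.05 were called. The SE of a log2 fold change was worked back from the quasi-likelihood F test, as its absolute value over the square root of F. DESeq2 1.42.0 was the alternative. The genes that define the cells stayed in the fits. They were left out of the counts against Cd8a-positive T cells and of the difference in label effect, although p-values were adjusted over all fitted RNAs. By label they count among the RNAs tested, and no test of them is used. Levels are CPM of the summed UMIs. Named genes were the 15 largest called rises and falls against Cd8a-positive T cells with all 6 libraries agreeing in direction after TMM scaling and at least 50 CPM in 1 population, the RNAs called by label whose libraries did not overlap after TMM scaling, and the helper, regulatory, naive and CD4 lineage genes that were called together with Foxp3, Tbx21, Gata3 and Bcl6. Some genes of the lists are not reported here. Genes such as Cd28, Icos and Ifng were added after their values were seen. Shares were compared with exact permutation tests. No doublet caller was run. In a test on simulated data, with a log2 change of 2 given to 200 RNAs, the fit by label recovered 91 of 101 changed RNAs tested with 2 false calls of 93, and the fit against Cd8a-positive T cells 68 of 79 with 3 false calls of 71. Intervals and floors cover counting error only. Alternatives changed the normalisation, filter, depth, gate or libraries.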

Additional observations from a re-analysis of the deposited data

Results flagged for a closer look

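A difference in label effect between CD4 and Cd8a-positive T cells was called for 6 RNAs, given as the log2 label effect in CD4 T cells minus that in Cd8a-positive T cells. Mki67 differed by -3.78 and Lmnb1 by -3.22, both proliferation-linked. In CD4 T cells Mki67 had 522, 0 and 63.8 CPM in the control libraries and 34.8, 69.3 and 20.4 CPM in the others, and Lmnb1 had 457, 0 and 0 CPM and 23.2, 57.7 and 20.4 CPM. Control replicate 1, with Mki67 in 2 of its 7 cells, held the high values, and without it the Mki67 difference was -0.63 (edgeR adjusted p = 0.941). Lgals1 differed by -2.68, Cd6 by -2.06, Ctsw by 2.23 and Malat1 by 1.18. The median over all RNAs in this comparison was 0.442, so positive differences are to be read against it. DESeq2 called 0 of the 6.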

How the results depend on the processing

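The share of CD4 T cells was higher under the knockout label in every alternative run, with log2 ratios from 1.54 to 2.86 of CD3-positive cells and 2.0 to 3.4 of cells past the limits. Alternatives without the Vil1 criterion, or with up to 2 Vil1 UMIs allowed, were chosen after seeing the data. By label, 5 calls became 0 with DESeq2, with at least 2 Cd4 UMIs, without cells holding markers of other cell types or with Vil1 not used, 1 with 2000 UMIs and 10% mt- or thinned counts, 2 without the deepest 10% of cells, 3 without TMM scaling, 19 with up to 2 Vil1 UMIs, and 0 to 13 with 1 library left out. Gzma turned to 0.05 without the filter, 0.84 without the deepest 10% of cells, 0.49 with Vil1 not used and 0.60 with up to 2 Vil1 UMIs, and Rpl37 to -0.06 with the last. Against Cd8a-positive T cells, 223 calls became 140 with DESeq2, 367 without the filter, 105 with at least 2 Cd4 UMIs, 113 without cells holding other markers, 478 with up to 2 Vil1 UMIs, 17 against Cd8b1-positive cells (Ms4a4b at -0.27), 42 with cells thinned to 1000 UMIs, and 157 to 258 with 1 library left out. The 6 differences in label effect became 0 with DESeq2 or without the deepest 10% of cells, 1 without cells holding other markers, 3 without the filter, 53 with up to 2 Vil1 UMIs, and 1 to 9 with 1 library left out. Elavl1 in Vil1-positive cells was 0.10 without TMM scaling (edgeR adjusted p = 0.0714). The causes were not tested. The replicate block gave 3 calls by label, but same-numbered libraries did not deviate together (correlations 0.006, -0.01 and -0.041), so the numbers do not pair them. Fits for Foxp3-positive or naive-like cells were not run, with 0 and 3 such cells. Comparisons of CD4 T cells by label rest on 13 control cells.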

Other observations

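RNA of 2 chemokines, Ccl3 and Ccl4, was highest in 1 library. In CD4 T cells Ccl3, a chemokine of activated T cells, had 65.3, 0 and 0 CPM in the control libraries and 46.4, 34.6 and 1933 CPM in those labelled IE-HuR-/-. Ccl4, its neighbour in the same family, had 718, 0 and 0 CPM and 46.4, 127 and 3794 CPM. IE-HuR-/- replicate 3 thus stood above every other library for both, and neither was called against Cd8a-positive T cells (edgeR adjusted p = 0.761 and 0.996). Tnf followed with 0, 0 and 0 CPM and 34.8, 46.2 and 265 CPM.

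Chains of the interleukin 18 receptor had too few counts for the fit. Il18r1 had 0, 0 and 128 CPM in CD4 T cells of the control libraries and 151, 57.7 and 122 CPM in the others, against 0 to 6.11 CPM in Cd8a-positive T cells, from 32 and 12 UMIs. Il18rap had 97.9, 0 and 192 CPM and 92.8, 11.5 and 163 CPM against 0 to 14.7 CPM, from 31 and 28 UMIs. The CD4 and Cd8a-positive libraries overlapped for both.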
